A study of Mus musculus with 6 samples.

Results

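In mouse fibroblasts, 10 genes were examined that mark the paths from a mesenchymal precursor to cartilage or bone: the regulators Sox9, Sox5, Sox6, Runx2 and Sp7 and the products Acan, Hapln1, Chad, Alpl and Ibsp. They were chosen by symbol, through probe sets that the array's annotation gives to exactly 1 gene, and each gene was read on its probe set of highest mean signal over the 6 arrays. In this way 9 of the 10 genes were found among 18193 genes, on 24 probe sets in all. No probe set here was annotated to Runx2, which was not analysed here. In 3 samples the cells carried Delta9, an altered form of Lmna, which encodes lamins A and C of the nuclear lamina, and in 3 samples they were wild type (WT). The labels do not give the zygosity of the allele. All 6 samples were primary fibroblast lines of siblings on the strain background C57bl6X129S3/J, used at passage 3 after 72 hours without serum, with 1 Affymetrix array each. The cells are adult by the labels and post-natal by the design text. The number of animals is not stated, so p-values reflect the scatter among these samples, which may be technical.

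Cartilage and bone arise from shared mesenchymal precursors. Sox9 is the transcription factor that starts the chondrocyte programme, and Sox5 and Sox6 act beside it to switch on the genes of the cartilage matrix. Runx2, followed by Sp7 (osterix), directs precursors to the osteoblast fate, whose later products bind or release mineral.

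None of the 9 genes passed the test of Delta9 against WT, and the chondrocyte regulator Sox9 had the largest difference, a 1.43-fold lower mean signal in Delta9. The threshold was an adjusted p of 0.05 in limma, a linear model fitted to all genes at once, and 0.0605% of all genes passed it. In 7 of the 9 genes the Delta9 mean was the lower one and in 2 the higher one, with a median difference of -0.19 log2, against 53.2% lower and a median of -0.015 over all genes. This median was -0.080 without WT replicate 3. At an unadjusted p under 0.05 there were 2 lower genes, Sox9 and Ibsp, and 0 higher ones, while 6.06% of all genes were lower and 4.54% higher by that rule. For 5 genes, Sox9, Sox5, Chad, Sp7 and Ibsp, all Delta9 values lay below all WT values, which is 55.6% of the 9, while 9.99% of all genes were separated in this direction. Ibsp, counted in both, had a signal that cannot be told from background, so its values give no direction of expression. Sox5, Chad and Sp7 lay below the median gene, and without detection calls it is not known whether they were above background. The 9 genes were chosen with earlier results of these data known, so their share is a description. Of 33 marker genes of osteoclasts, endothelium, keratinocytes, skeletal muscle and adipocytes, 15.2% were separated in this direction and 1 gene in the other. With the mean of each gene's probe sets in place of the brightest one, 3 of the 9 genes were separated: Chad, Sp7 and Ibsp. Sox9 and Sox5 then overlapped between the groups. After quantile normalization, 4 of the 9 genes were separated. RNA came from whole cultures, so fewer cells of one kind and less RNA per cell cannot be told apart.

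**Figure D1:**
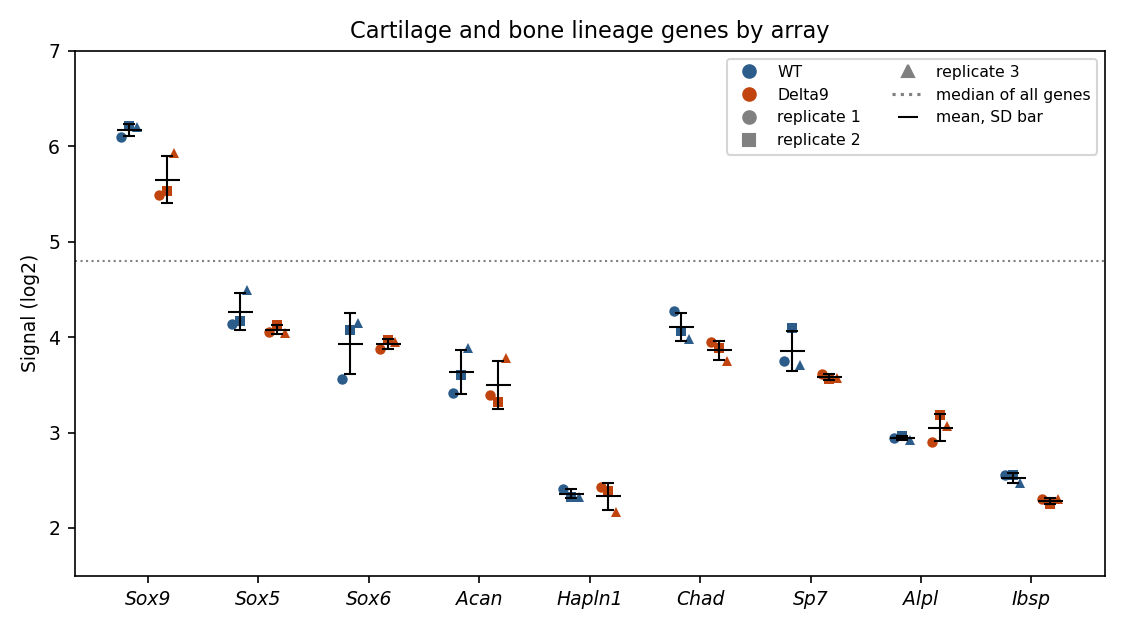
Signal (log2) of the 9 genes on each array, WT in blue and Delta9 in orange, with symbols for the replicates, black marks for the mean and bars for the SD (n = 3). The dotted line is the median over all genes, 4.79, and only Sox9 lies above it.

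The genes were mostly dim. No detection calls came with the values, so each gene is described by its rank in mean signal among the genes tested, a rank of array signal and not of RNA amount, since probe sets differ in how well they bind. Sox9 stood at the 63.1 percentile, above 63.1% of genes. Between the 36.5 and 43.8 percentiles lay Sox5, Chad, Sox6, Sp7 and Acan. Alpl was at 26.8, Ibsp at 11.3 and Hapln1 at 9.55, where a signal cannot be told from background with these values.

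Sox9 was the one gene of the 9 with a mean signal above the median gene. On its brightest probe set, 1451538_at, it read 5.49, 5.53 and 5.93 on the Delta9 arrays (replicates 1, 2 and 3), and 6.09, 6.21 and 6.20 on the WT arrays (log2). Delta9 replicate 3 was nearest to WT, and the groups did not overlap. The means were 5.65 ± 0.24 in Delta9 and 6.17 ± 0.066 in WT (SD, n = 3). Their difference was -0.52 (SE 0.16, 95% interval -0.90 to -0.13), with an adjusted p of 0.358 (0.131 to 0.665 over the alternatives). As a fold, the Delta9 level was 1.43 times lower, with an interval from 1.10 to 1.87 times. The other probe sets of Sox9 were dimmer and also lower in Delta9, with overlapping groups. They differed by -0.26 (SE 0.18) for 1424950_at and -0.13 (SE 0.11) for 1433889_at. The mean of all Sox9 probe sets differed by -0.30, and on it the groups overlapped too.

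The partner factors Sox5 and Sox6 differed less. Sox5 read 4.06, 4.13 and 4.04 in Delta9 and 4.14, 4.17 and 4.49 in WT. The groups were apart by a narrow margin, and WT replicate 3 stood above the other arrays. The difference was -0.19 (SE 0.14, interval -0.52 to 0.13), or -0.080 without WT replicate 3. Of the 7 probe sets of Sox5, 5 had a lower and 2 a higher Delta9 mean, and the other 6 differed by no more than 0.12 in size. For Sox6 the Delta9 values were 3.87, 3.96 and 3.95 and the WT values 3.56, 4.08 and 4.15. Delta9 lay inside the range of WT, with a difference of 0.00090 (SE 0.17, interval -0.41 to 0.41). Leaving out WT replicate 1 gave -0.18, and leaving out WT replicate 3 gave 0.11. Its 4 probe sets went both ways, from -0.30 (SE 0.18) to 0.22 (SE 0.12).

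Sp7, the zinc finger factor that commits cells to the osteoblast fate, read 3.61, 3.56 and 3.57 in Delta9 and 3.75, 4.09 and 3.71 in WT. WT replicate 2 was the highest array, and the Delta9 values were close together below all of WT. The means were 3.58 ± 0.027 in Delta9 and 3.85 ± 0.21 in WT (SD, n = 3), a difference of -0.27 (SE 0.13, interval -0.58 to 0.043) with an adjusted p of 0.520. Without WT replicate 2 it was -0.15. Sp7 was measured by 1 probe set.

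None of the cartilage matrix products passed the test. Acan encodes aggrecan, the large proteoglycan that holds water in cartilage. It read 3.40, 3.32 and 3.78 in Delta9 and 3.42, 3.60 and 3.88 in WT, with replicate 3 the highest in both groups. The groups overlapped, and the difference was -0.14 (SE 0.17, interval -0.55 to 0.27). It was -0.011 without WT replicate 3, -0.045 without Delta9 replicate 2, -0.085 without Delta9 replicate 1, -0.24 without WT replicate 1 and -0.28 without Delta9 replicate 3. Hapln1, the link protein that fastens aggrecan to hyaluronan, read 2.43, 2.39 and 2.17 in Delta9 and 2.41, 2.33 and 2.33 in WT. It differed by -0.025 (SE 0.088, interval -0.23 to 0.18), and its 4 probe sets ran from -0.061 to 0.21, all near the bottom of the scale. The difference was -0.076 without Delta9 replicate 1 and 0.055 without Delta9 replicate 3.

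Chad encodes chondroadherin, a leucine-rich protein by which chondrocytes attach to the matrix. It read 3.95, 3.89 and 3.75 in Delta9 and 4.27, 4.07 and 3.98 in WT. Delta9 replicate 1 came within a small distance of WT replicate 3, without overlap. The difference was -0.25 (SE 0.13, interval -0.55 to 0.058) with an adjusted p of 0.547, and -0.16 without WT replicate 1.

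The bone products Alpl and Ibsp differed by small amounts at low signal. Alpl, the tissue-nonspecific alkaline phosphatase that frees phosphate for mineral, read 2.90, 3.19 and 3.07 in Delta9 and 2.94, 2.97 and 2.93 in WT. Delta9 was the more variable group and reached both above and below WT, and the difference was 0.11 (SE 0.10, interval -0.13 to 0.34), or 0.038 without Delta9 replicate 2 and 0.18 without Delta9 replicate 1. Ibsp, the integrin-binding sialoprotein of mineralised bone, read 2.30, 2.25 and 2.30 in Delta9 and 2.55, 2.56 and 2.47 in WT. The values did not overlap, at a level not told from background, with a difference of -0.24 (SE 0.067, interval -0.40 to -0.084). Its adjusted p of 0.299 was the lowest of the 9 genes. The second probe set of Ibsp, 1417484_at, was dimmer still and differed by -0.066 (SE 0.12) with overlapping groups.

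**Figure D2:**
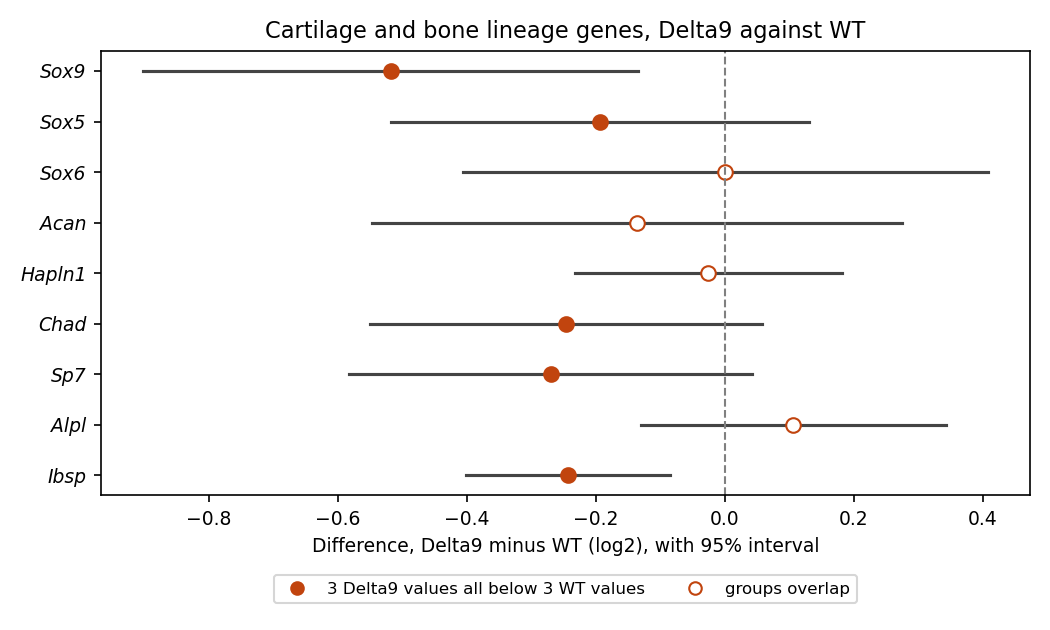
Difference of Delta9 minus WT (log2) for each of the 9 genes, with the 95% interval of the limma fit as a line. Filled points are genes whose Delta9 values all lay below WT. The intervals of Sox9 and Ibsp lie below 0 before adjustment for the number of genes, and those of the other 7 include 0.

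The intervals show how closely each difference in array signal was measured. Among Alpl, Hapln1 and Ibsp the bound farthest from 0 was -0.40, for Ibsp, whereas for Sox9 it was -0.90. The signals of Alpl, Hapln1 and Ibsp cannot be told from background, so their narrow intervals set no bound on a difference in RNA. The SE ran from 0.067 for Ibsp to 0.17 for Acan and Sox6.

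Sequence upstream of the start was at hand for Chad and Ibsp, products from the cartilage and the bone side whose groups did not overlap, and it is shown for the letters that RUNX and SOX factors are known to recognise. Each is the 250 bases before the transcription start from RefSeq (GRCm38.p6), on the gene's strand, at chr11:94564797-94565046 (plus strand) for Chad and chr5:104299037-104299286 (plus strand) for Ibsp. Capitals mark a match on either strand to a RUNX core (TGTGGT) or a SOX core (ACAAAG or ACAATG).
Chad: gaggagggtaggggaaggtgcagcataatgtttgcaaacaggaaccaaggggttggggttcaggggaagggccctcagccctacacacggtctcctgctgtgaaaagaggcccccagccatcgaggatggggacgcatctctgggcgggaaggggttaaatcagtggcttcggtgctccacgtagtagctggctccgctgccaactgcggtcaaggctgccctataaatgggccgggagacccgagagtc
Ibsp: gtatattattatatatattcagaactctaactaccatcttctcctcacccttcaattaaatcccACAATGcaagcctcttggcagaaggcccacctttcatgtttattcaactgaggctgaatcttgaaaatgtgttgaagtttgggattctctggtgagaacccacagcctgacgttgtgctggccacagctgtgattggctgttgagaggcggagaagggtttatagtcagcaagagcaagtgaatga
Ibsp held 1 SOX core, beginning 186 bases before the start, and no RUNX core, and Chad held neither. A RUNX core was found in 14.0% and a SOX core in 25.2% of 32851 promoter windows of this length. A match is a description of letters and not a binding site.

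The arrays were divided into 2 parts by their poly-A spike-ins, transcripts added to the RNA before labelling. The 2 arrays of lowest mean, Delta9 replicate 3 at 4.87 and WT replicate 1 at 4.55, were set apart. The other 4 arrays had means of 5.25 to 5.67. Within those 4 arrays Sox9 differed by -0.70 (SE 0.13, adjusted p 0.131), and by -0.16 between the other pair of arrays, where no test is possible. Ibsp differed by -0.24 in the 4 arrays and -0.25 in the pair, Sp7 by -0.32 and -0.18, Sox5 by -0.24 and -0.10, and Alpl by 0.098 and 0.12. Chad differed by -0.11 and -0.53, the larger one in the pair. Acan, at -0.39 and 0.36, and Sox6, at -0.19 and 0.39, changed sign between the parts, and so did Hapln1, at 0.083 and -0.24. None of the 9 passed within the 4 arrays or with the split as a block.

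Markers of other cells differed between the arrays. All 14 macrophage markers had higher means in Delta9, with a median difference of 1.08, and 0 passed. At an unadjusted p under 0.05 in limma, 3 of them were higher. The mean of their log2 levels ran from 9.71 to 10.3 on the Delta9 arrays and from 7.63 to 9.83 on the WT arrays, lowest on WT replicate 3 and, on WT replicate 1, within the range of Delta9. No marker of the list was at 0, but no gene tested had a mean signal of 0, the lowest being 1.70. This does not show that each marker was expressed. The defining marker Csf1r, the receptor for macrophage growth factor, had means of 11.4 in Delta9 and 10.4 in WT, with overlapping groups. It read 11.2, 10.9 and 11.9 in Delta9 and 11.6, 10.6 and 9.05 in WT (replicates 1, 2 and 3). With the mean of these markers as a covariate, Sox9 differed by -0.53, Chad by -0.34, Sp7 by -0.32 and Ibsp by -0.29, each at least as large as without it. Sox5 differed by -0.012, Acan by 0.016 in place of -0.14, Sox6 by 0.23 in place of 0.00090, Alpl by 0.099 and Hapln1 by -0.025. In that fit the adjusted p of the 9 genes lay between 0.530 for Ibsp and 0.987 for Acan. All 10 fibroblast markers had lower means in Delta9, with a median of -0.24, and 0 passed (limma; 2 lower and 0 higher at an unadjusted p under 0.05). The fibroblast list means were 10.6 to 10.8 on the Delta9 arrays and 11.0 to 11.2 on the WT arrays, and the part of this shift in the lineage genes was not tested. Medians of other marker lists were -0.10 for osteoclasts, 0.28 for endothelium, -0.12 for keratinocytes, -0.10 for skeletal muscle and 0.40 for adipocytes, and 0 of these 33 genes passed (limma; 3 lower and 1 higher at an unadjusted p under 0.05, where all genes had 6.06% lower and 4.54% higher). Lmna itself, on its brightest probe set 1421654_a_at, read 6.11 to 7.07 in Delta9 and 8.35 to 8.89 in WT. Its other probe sets differed by -3.42, -2.05, -0.54 and 0.22, of which the first passed when all probe sets were tested (adjusted p 0.00421). Whether any of them overlaps the altered stretch of Lmna is not known here, so they do not check the labels. On WT replicate 3 the 18S ribosomal RNA signal was 7.86, against 9.21 to 10.4 on the other arrays, and the 3' minus 5' signal of beta-actin was 1.41, against 0.51 to 0.86.

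**Figure D3:**
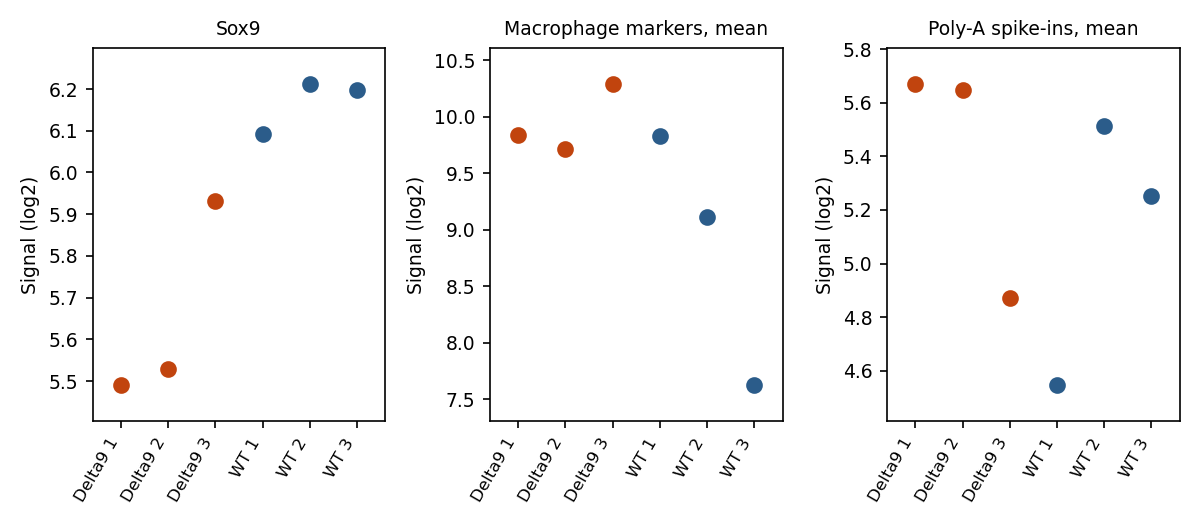
Signal (log2) on each array of Sox9, of the macrophage markers (mean of 14 genes) and of the poly-A spike-ins (mean), Delta9 in orange and WT in blue, with a separate vertical scale in each panel that does not begin at 0. Sox9 is shown on its brightest probe set, where it is separated by genotype. WT replicate 1 stands among the Delta9 arrays in macrophage markers, as it does on the dimmer Sox9 probe sets, which are not drawn. WT replicate 1 and Delta9 replicate 3 are lowest in spike-ins.

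The genes whose 6-array profiles lay nearest to Sox9, the gene of the 9 with the largest SD over the arrays (0.33), were sought among 1458 genes with an SD of at least 0.5. By root mean square distance of the centred values they were Slc1a3, a glutamate transporter (0.22), Tbl2 (0.23), Pdk4, a kinase that holds back pyruvate dehydrogenase (0.23), Cyp1b1, a cytochrome P450 (0.23), and Ccdc3 (0.23). The cut lies above the SD of Sox9 itself, so genes that vary as little as Sox9 were left out. Nearer profiles may exist among them, and the 5 genes named have an SD just above the cut, 0.51 to 0.54. The likeness is a description over 6 arrays.

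In the wider set of cartilage and bone genes none passed, and only the matrix genes Comp, Prg4 and Omd had differences of over 2 log2. Of 71 measured genes in 4 lists, 54 had lower and 17 higher means in Delta9, with a median of -0.16, and 0 passed (limma; 21 lower and 0 higher at an unadjusted p under 0.05, where all genes had 6.06% lower and 4.54% higher). In 31.0% of the 71, all Delta9 values lay below all WT values, against 9.99% of all genes. The lists were chosen with earlier results of these data known, so this share is a description. Some of the separated genes, such as Nkx3-2 and Epyc, were too dim to be told from background. The cartilage matrix list held 24 measured genes, 18 lower and 6 higher, with a median of -0.13, and 7 were lower at an unadjusted p under 0.05. Comp, the oligomeric matrix protein of cartilage and tendon, read 4.52, 5.19 and 7.61 in Delta9 and 10.5, 9.81 and 9.95 in WT, a difference of -4.32 (SE 0.73, adjusted p 0.146). Delta9 replicate 3 was far above the other Delta9 arrays, and without it the adjusted p was 0.00454, the lowest of its alternatives, which ran up to 0.510. Prg4, the joint lubricant lubricin, differed by -3.24 (SE 0.41, adjusted p 0.0679), and passed without Delta9 replicate 3. Col11a1, a collagen of thin cartilage fibrils, differed by -1.04 (SE 0.13, adjusted p 0.0679), and the dim proteoglycan Epyc by -0.43 (SE 0.14).

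Over all genes, 53.2% had lower Delta9 means, and 6.06% were lower and 4.54% higher at an unadjusted limma p under 0.05. Among 14 other cartilage regulators and signals, 10 were lower and 4 higher (median -0.069, 4 lower at an unadjusted p under 0.05). They included Zbtb20, a zinc finger factor of chondrocyte maturation, with -0.63 (SE 0.14), Foxc1, a forkhead factor of skeletal development, with -1.23 (SE 0.36), Trps1, a GATA-type repressor of cartilage growth, with -0.79 (SE 0.28), and the dim Nkx3-2, a repressor that acts with Sox9, with -0.20 (SE 0.081). Their adjusted p ran from 0.231 to 0.460. With the macrophage covariate Foxc1 differed by -0.70, Trps1 by -1.20 and Nkx3-2 by -0.13.

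Among 17 other bone regulators and signals, 14 were lower and 3 higher (median -0.22, 4 lower at an unadjusted p under 0.05). Over all genes, 53.2% had lower means, and 6.06% were lower and 4.54% higher at that limma p. Zfp521, a zinc finger protein that restrains Runx2, differed by -0.86 (SE 0.18, adjusted p 0.222). Twist1, another restraint on Runx2, differed by -0.62 (SE 0.25), the Hedgehog receptor Ptch1 by -0.43 (SE 0.17) and the dim homeobox gene Dlx6 by -0.32 (SE 0.11). Twist1 differed by -0.37 with the macrophage covariate and -0.96 within the 4 arrays, and Ptch1 by -0.17 with the mean of its probe sets. The 17 measured bone matrix and mineralisation genes had 13 lower and 4 higher means (median -0.23, 6 lower at an unadjusted p under 0.05). Omd, the bone proteoglycan osteomodulin, differed by -2.03 (SE 0.24, adjusted p 0.0597), Mgp, an inhibitor of mineral deposition, by -0.98 (SE 0.18, adjusted p 0.169), the cadherin Cdh11 by -0.49 (SE 0.14) and the sphingomyelin synthase Sgms2 by -0.79 (SE 0.23). Sgms2 differed by -0.37 with the macrophage covariate and -0.49 with the mean of its probe sets. All 18 further probe sets of the 16 genes named from these 4 lists also had lower Delta9 means. Some hardly differed, such as 1437066_at of Zbtb20 at -0.0013 and 1450824_at of Ptch1 at -0.010. The 16 genes were named for a low p in these same data and all were lower, so this count is a description and no separate support.

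**Figure D4:**
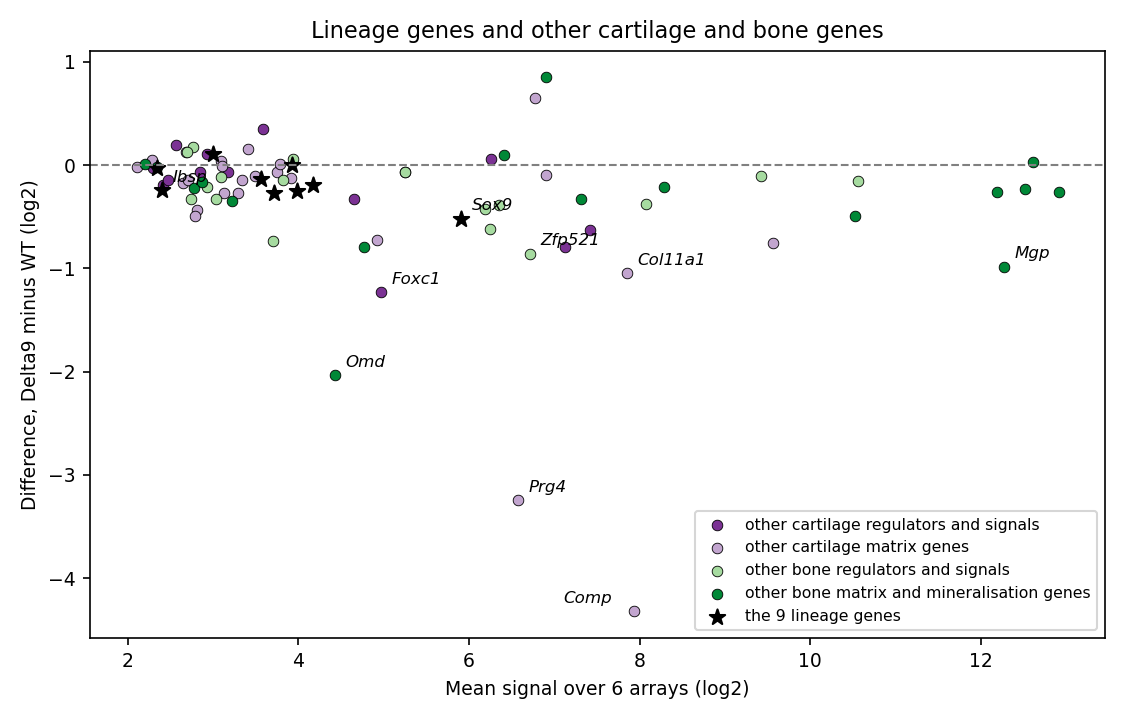
Difference of Delta9 minus WT (log2) against mean signal over the 6 arrays (log2) for the 9 lineage genes (stars) and the genes of the 4 other cartilage and bone lists (circles by list). Most points lie just below 0, the stars lie between -0.52 and 0.11, and Comp, Prg4 and Omd lie at -4.32, -3.24 and -2.03.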

How the data were processed

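The authors deposited 1 log2 value for each of 45101 probe sets on 6 arrays, from Trizol RNA and a 1-cycle biotin labelling kit, per the labels' protocols. How probe signals were summarised and normalized is not given in the sources used here. Base 2 was inferred from the values' range. The 64 control probe sets were kept out of the tests. Of the rest, 34945 had 1 gene symbol in the platform's annotation, 932 several and 9160 none. The 9 lineage genes matched RefSeq by Entrez identifier under the same symbol.

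All 18193 genes were fitted with limma 3.58.1 under R 4.3.3 (lmFit, eBayes with trend, Benjamini-Hochberg over all genes, threshold 0.05), with no filter or pseudocount. The fitting script was checked on simulated data. Figures used matplotlib 3.10.9. The members and lists were chosen with earlier results of these data known. From each of the 4 further lists the text names every gene past the threshold or otherwise the 4 of lowest p. It also names the 5 genes nearest to Sox9 among those with an SD of at least 0.5. Csf1r was chosen after its values were seen. Alternatives were quantile normalization, leaving out the dimmest 25% of genes, the mean over each gene's probe sets, all probe sets, no variance trend, the replicate number as a block, the spike-in split as a block, the macrophage markers as a covariate and each sample left out. A fit on only the 4 arrays with more spike-in signal was added after seeing the data.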

Additional observations from a re-analysis of the deposited data

How the results depend on the processing

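The count of 0 lineage genes past the threshold held under all 15 alternatives, with the lowest adjusted p among 133 values at 0.131. The sign of the difference was kept by Sox9, Sox5, Chad, Sp7, Ibsp and Alpl in every alternative that measured them, with Sox9 from -0.70 to -0.30, and 11 values of Sox6, Acan and Hapln1 changed sign. Without the dimmest 25% of genes, 7 of the 9 remained to be tested. The median of the 9 was -0.14 with the mean of each gene's probe sets, and -0.23 to -0.080 with single samples left out. With quantile normalization, 4 genes in place of 5 were separated between the groups. With the mean of probe sets, 3 genes in place of 5 were separated, and Sox9 and Sox5 were not. The cause was not tested.

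Over all genes, 11 passed the threshold, 149 with the spike-in split as a block, 61 in only the 4 arrays with more spike-in signal, 3 with the macrophage covariate and 1 to 81 with single samples left out (81 without Delta9 replicate 3, 1 without WT replicate 2). With the split as a block, Prg4, Comp, Col11a1, Omd, Mgp and Trps1 passed as lower. With the replicate block 0 genes passed. Deviations from the group means did not follow the replicate numbers, correlating across genes at -0.40, 0.17 and -0.43 for replicates 1, 2 and 3. The highest correlation, 0.59, was between Delta9 replicate 3 and WT replicate 1. Whether samples were paired by origin or handling cannot be told from these values. Precision is limited by having 3 arrays per group, and without detection calls it is not known which of the dim genes were above background.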
